A study of Mus musculus with 1019 samples.

Results

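AP-1 is a family of transcription factors that bind DNA as pairs, and its 8 members followed here were Fos, Fosb, Fosl2, Jun, Junb, Jund, Atf3 and Maff, in regulatory T cells (Tregs) of visceral adipose tissue (VAT) and spleen. They were taken by symbol as 8 of the 23725 rows of a table of unique molecular identifiers (UMIs), of which 13281 rows held a UMI. Messenger RNA was measured in 1019 single cells by inDrops, a droplet method in which each captured mRNA receives a UMI at its 3' end. The VAT libraries, numbered 2 and 3 in the labels, held 330 and 314 cells and came from the epididymal fat pads of male B6 mice aged 20 months. A single spleen library held 375 cells from male B6 mice of the same age. The flow sort kept live (DAPI-) TCRb+ cells that stained for CD4 and CD25 in both tissues. Cells were freed from VAT with collagenase and dispase and from spleen by mechanical force, so tissue and dissociation cannot be told apart in any VAT to spleen ratio given here. Since no label names an animal and cells of a library are not replicates, the libraries are the samples here and no p-value is given. The spleen cells carried conflicting labels, with spleen as the source and a tissue field that named spleen and visceral adipose tissue together.

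AP-1 proteins share a basic region that touches DNA and a leucine zipper that joins the partners. Jun proteins can pair with each other or with Fos proteins, whereas Fos proteins need another partner, usually a Jun protein. Most of the genes are immediate early genes, transcribed within minutes of receptor signals or stress without new protein synthesis, and AP-1 partners of this family are known to take part in T cell activation and in the differentiation of tissue Tregs.

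The libraries were of similar depth, with 556099 UMIs in VAT library 2, 548770 in VAT library 3 and 573622 in spleen, and medians of 1565, 1611 and 1423 UMIs per cell. All 11 Treg genes looked up had 20 or more UMIs when the libraries were summed. Foxp3, the lineage factor of Tregs, had 263 and 189 UMIs in VAT and 221 in spleen. By share of all UMIs, Il2ra, Ikzf2, Tnfrsf4, Tnfrsf18 and Ctla4 were higher in both VAT libraries than in spleen. Cd4, Cd3g, Il2rb, Cd3e and Ikzf4 were lower in both, and Ikzf4 had 6 and 3 UMIs in VAT and 30 in spleen. Among markers of other cells, the myeloid list summed to 119 and 124 UMIs in VAT and 53 in spleen, mostly of Cst3, while Cd14, Adgre1, C1qa, C1qb and Mrc1 were at 0 in every library. Across VAT cells the myeloid sum had a Spearman's rho of -0.06 and 0.03 with the summed members. Erythroid markers summed to 1 and 1 UMI in VAT and 114 in spleen, and stromal and endothelial markers to 1 and 4 in VAT and 30 in spleen, mostly of Pecam1. The B cell list summed to 9 and 13 UMIs in VAT and 21 in spleen, mostly of Cd22, with Cd79a at 0. The CD8 and NK list summed to 37 and 36 UMIs in VAT and 33 in spleen, mostly of Cd8b1, with Cd8a at 0. Neutrophil markers summed to 14 and 20 UMIs in VAT and 22 in spleen, mostly of Csf3r, mast cell markers to 5 and 1 in VAT and 0 in spleen, and adipocyte markers to 3 and 3 in VAT and 0 in spleen, with Adipoq and Plin1 at 0. Each of these lists was small in UMIs beside the summed members in VAT, but the UMIs were spread over many cells. Without thinning, a myeloid marker UMI was found in 25.8% and 26.4% of VAT cells and 11.7% of spleen cells. Erythroid marker UMIs were found in 0.303% and 0.318% of VAT cells and 21.3% of spleen cells. The part of these lists in the results was not tested beyond leaving out marker-positive cells. That kept 208 of 330 and 187 of 314 VAT cells and 200 of 375 spleen cells. The libraries shared 3 cell barcodes in all.

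The promoters of 4 members are shown as examples, and all 4 hold the motif TGACG. Each is the 250 bases before a RefSeq transcription start on GRCm38.p6, 5' to 3', at chr12:85473640-85473889 for Fos (+ strand), chr7:19310046-19310295 for Fosb (- strand), chr8:84978749-84978998 for Junb (- strand) and chr15:79347270-79347519 for 1 of the 3 Maff starts (+ strand). Capitals mark TGACG, which is the core of the site bound by CREB and ATF proteins, the full site TGACGTCA, and the TATA motif TATAAA.
Fos: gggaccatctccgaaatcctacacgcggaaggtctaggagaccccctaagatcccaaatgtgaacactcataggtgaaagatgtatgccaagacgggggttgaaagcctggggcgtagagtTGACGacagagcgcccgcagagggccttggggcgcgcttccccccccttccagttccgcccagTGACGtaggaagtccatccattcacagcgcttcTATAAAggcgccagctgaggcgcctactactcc
Fosb: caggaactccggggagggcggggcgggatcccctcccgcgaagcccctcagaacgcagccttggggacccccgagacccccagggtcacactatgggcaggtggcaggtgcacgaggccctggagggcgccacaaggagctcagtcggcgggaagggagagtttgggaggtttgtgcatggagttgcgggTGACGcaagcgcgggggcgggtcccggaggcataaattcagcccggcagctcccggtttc
Junb: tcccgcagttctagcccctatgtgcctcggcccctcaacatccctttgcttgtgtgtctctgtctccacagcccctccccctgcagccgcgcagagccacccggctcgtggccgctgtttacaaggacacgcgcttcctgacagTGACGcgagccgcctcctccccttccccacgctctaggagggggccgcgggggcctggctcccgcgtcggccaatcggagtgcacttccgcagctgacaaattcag
Maff: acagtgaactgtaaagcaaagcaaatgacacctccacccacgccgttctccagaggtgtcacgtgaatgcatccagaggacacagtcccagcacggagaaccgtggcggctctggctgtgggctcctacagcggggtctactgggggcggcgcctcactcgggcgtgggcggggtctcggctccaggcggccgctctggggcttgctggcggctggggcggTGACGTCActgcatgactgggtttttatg
All 8 members matched a RefSeq entry, with 10 promoters among them. TGACG, searched on both strands and contained in TGACGTCA, stood in 6 of the 10 member promoters and in 17.8% of all 32851 RefSeq promoters over the same window. These 6 count Maff more than once. The promoters of Fosl2, Jun and Jund, which were higher in VAT as well, held none of the motifs searched. In Fos it lay 66 to 62 and 129 to 125 bases before the start, in Fosb 60 to 56 and in Junb 106 to 102. TGACGTCA was found in the Maff promoter shown, 29 to 22 bases before the start, and in 1.55% of all promoters. TATAAA was found 33 to 28 bases before the start of Fos and in no other member promoter, against 12.4% of all. TGANTCA, the site that AP-1 itself binds, and the CArG box of serum response factor were in none of the 10, against 6.75% and 1.47% of all promoters. These matches describe letters in the window, not bound sites. Sites outside the 250 bases and inexact matches were not counted, so a motif not found here may lie elsewhere. RefSeq starts also differ from the gene coordinates given below. The Jund window ends at 70697738, before the gene at 70698949, and those of Fosl2 and Atf3 lie inside the gene. The Maff window shown and the one that starts at 79348152 also lie inside the gene, which runs from 79346621 to 79359076.

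All 8 members had higher mRNA levels in VAT than in spleen Tregs. Together they made up 1.79% of all UMIs in VAT library 2 (95% interval 1.75 to 1.82), 1.66% in VAT library 3 (1.62 to 1.69) and 0.0992% in spleen (0.0912 to 0.108). Counted by a rule of at least 2-fold in both VAT libraries, 8 of 8 members were higher and 0 lower, beside 10.3% of the 4635 genes with 50 or more UMIs that were higher and 4.4% that were lower. The median log2 ratio of the members, with 0.5 added to each count, was 5.24 and 4.84 in VAT libraries 2 and 3, against medians of 0.04 and -0.02 over all 4635 genes. Dividing by totals without ribosomal protein genes moved these medians over all genes to -0.20 and -0.23 and the share of higher among all calls to 52.6%, against 70.1%, and left 8 of 8 members higher. All members but Junb and Jund had under 50 UMIs in spleen and reached that minimum only with VAT, so the count describes these libraries and is no support by itself. Levels are given below as CPM, the UMIs of a gene scaled to a common total per library. A UMI tags 1 captured 3' end, so no division by gene length was made, and intervals cover counting error only.

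Among the Fos class, whose proteins supply the partner of Jun, Fosb stood farthest from spleen. Fosb (GRCm38 chromosome 7, 19302696 to 19310051, minus strand) had 1336 and 1129 UMIs in VAT libraries 2 and 3, which is 2402 and 2057 CPM, and 0 UMIs in spleen. Set against a floor of 3 counts in spleen, it was at least 459-fold and at least 393-fold higher, and the exact lower limits were 373 and 319. Fosb UMIs were found in 0 of 375 spleen cells, which allows a share of up to 0.8% by a count of 3 and 0.979% by the exact interval. This limits cells with a UMI, not cells that express the gene.

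Fos (chromosome 12, 85473890 to 85477273, plus strand), the classic immediate early partner, had 913 and 1014 UMIs in VAT and 16 in spleen. Its levels were 1642 and 1848 CPM in VAT and 27.9 CPM in spleen, a ratio of 58.9 (36.0 to 103) and 66.2 (40.6 to 116). Fosl2, which encodes Fra-2, a Fos protein that usually appears later and persists longer than Fos, lies on chromosome 5 (32135801 to 32157842, plus strand). It had 737 and 527 CPM in VAT and 26.1 CPM in spleen, from 410, 289 and 15 UMIs. The spleen value rested on a clump, since 1 spleen cell held 9 of the 15 Fosl2 UMIs. The ratios were 28.2 (16.9 to 50.8) and 20.1 (12.01 to 36.5) with that cell, and 70.2 (32.0 to 192) and 50.2 (22.8 to 138) without it. Fosl1, the remaining Fos gene and no member here, had 4 and 1 UMIs in VAT and 0 in spleen.

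Among the Jun class, Junb and Jund carried most of the mRNA in both tissues. Junb (chromosome 8, 84974484 to 84978718, minus strand), which encodes a Jun protein needed for effector Treg function in mice, reached 7234 and 6682 CPM in VAT and 446 CPM in spleen. Its UMIs were 4023 and 3667 in VAT and 256 in spleen, so it ranked 6th among all genes by VAT UMIs and was 16.2-fold (14.3 to 18.5) and 15.0-fold (13.2 to 17.1) higher. The spleen cell with the Fosl2 clump also held 23 of the Junb UMIs, and without it the ratios were 17.7 and 16.4. Prdx2, on the other strand, overlaps the 3' end of a longer annotated Junb transcript and had 48 and 44 UMIs in VAT and 72 in spleen. How strand was used in counting was not given, so reads in that overlap cannot be told apart.

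Jund (chromosome 8, 70698949 to 70700616, plus strand) encodes the Jun protein that is widely present in resting cells. It had 2696 and 2548 UMIs in VAT and 232 in spleen, which is 4848 and 4643 CPM in VAT and 404 CPM in spleen, and was 11.99-fold (10.5 to 13.8) and 11.5-fold (10.03 to 13.2) higher. Jun (chromosome 4, 95049034 to 95052222, minus strand), the founding member, was the least raised, with 295 and 233 UMIs in VAT and 46 in spleen. Its levels of 530.5 and 425 CPM in VAT and 80.2 CPM in spleen gave ratios of 6.62 (4.84 to 9.23) and 5.29 (3.85 to 7.43). Jun, Jund and Atf3 also overlap annotated genes on the opposite strand (Junos, Gm11175 and Gm24748), with the same limit on strand.

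Atf3 (chromosome 1, 191170296 to 191218039, minus strand) encodes a stress-induced bZIP protein that pairs with Jun proteins. It had 226 and 180 UMIs in VAT, or 406 and 328 CPM, and 4 UMIs in spleen, or 6.97 CPM. All 4 spleen UMIs lay in 1 cell, so the ratios of 58.3 (22.5 to 216) and 47.0 (18.1 to 175) rested on that cell, and without it spleen was at 0. Maff (chromosome 15, 79346621 to 79359076, plus strand), a small Maf protein with no activation domain of its own, was scarce, with 28 and 29 UMIs in VAT and 0 in spleen. That is 50.4 and 52.8 CPM in VAT, at least 9.63-fold and at least 10.1-fold above the floor, with exact lower limits of 7.33 and 7.71.

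**Figure D1:**
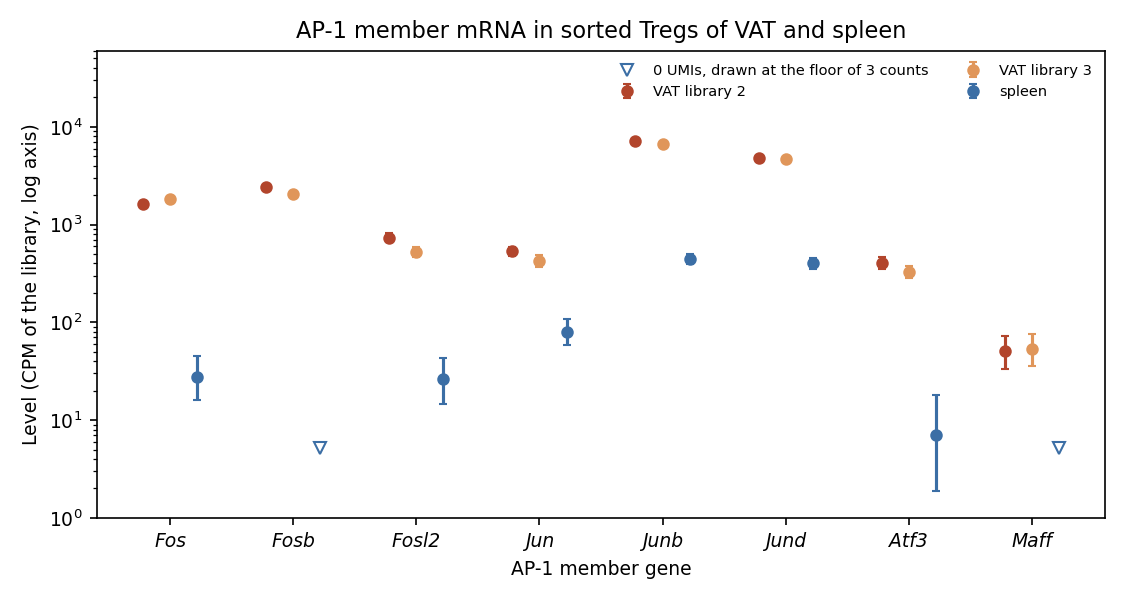
Level of each member in CPM on a log axis in VAT library 2, VAT library 3 and spleen. Points are libraries, bars are exact 95% Poisson intervals for counting error, and open triangles mark 0 UMIs drawn at the floor of 3 counts; for Fosb the VAT points lie at 2402 and 2057 CPM above a spleen count of 0.

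The VAT libraries lay close to each other beside these distances. The ratio of VAT library 3 to VAT library 2 ran from 0.714 (0.612 to 0.832) for Fosl2 to 1.13 (1.03 to 1.23) for Fos, and for Jund it was 0.958 (0.907 to 1.01). No member was 2-fold apart between the VAT libraries, which 4.34% of the 4635 genes were. Both VAT libraries gave the same order of levels, from Junb, Jund, Fosb and Fos to Fosl2, Jun, Atf3 and Maff. The neighbours Fosl2 and Jun lay close. Fosl2 was above Jun within each library, with intervals of 668 to 812 and 472 to 595 CPM in library 2. In library 3 their intervals, 468 to 591 and 372 to 483 CPM, overlapped. Across the libraries their ranges met, since Jun had 530.5 CPM in library 2 and Fosl2 had 527 CPM in library 3. In spleen the order was Junb, Jund, Jun, Fos, Fosl2 and Atf3, with Fosb and Maff at 0. The intervals of Fos (15.9 to 45.3 CPM) and Fosl2 (14.6 to 43.1 CPM) overlapped there, as did those of Junb (393 to 504 CPM) and Jund (354 to 460 CPM).

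The mix of subunits differed between the tissues. The Fos class (Fos, Fosb and Fosl2) took 26.8% (25.9 to 27.7) of member UMIs in VAT library 2, 26.8% (25.8 to 27.7) in VAT library 3 and 5.45% (3.73 to 7.64) in spleen. The Jun class (Jun, Junb and Jund) took 70.7%, 70.9% and 93.8%. Counted as Jun-class UMIs per Fos-class UMI, the values were 2.64 and 2.65 in VAT and 17.2 (11.99 to 25.6) in spleen, so the Jun class outnumbered the Fos class in all 3 libraries and by a wider margin in spleen. Atf3 added 2.28%, 1.98% and 0.703%, and Maff 0.282%, 0.319% and 0%.

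Within the Fos class Fosb held 50.2% and 46.4% of the UMIs in VAT and 0% of 31 UMIs in spleen, with an upper limit of 11.2%. Fos held 34.3% and 41.7% in VAT and 51.6% in spleen, and Fosl2 15.4% and 11.9% in VAT and 48.4% in spleen. The spleen shares rest on few UMIs, and their intervals ran from 33.1% to 69.8% for Fos and from 30.2% to 66.9% for Fosl2. Without the cell that held 9 Fosl2 UMIs, Fos was 72.7% (49.8 to 89.3) and Fosl2 27.3% (10.7 to 50.2) of 22 Fos-class UMIs in spleen. Within the Jun class, where counts were larger, Junb held 57.4% and 56.9% in VAT and 47.9% (43.6 to 52.3) in spleen. Jund held 38.4% and 39.5% in VAT and 43.4% (39.2 to 47.8) in spleen. Jun held 4.21% and 3.61% in VAT and 8.61% (6.38 to 11.3) in spleen, and its spleen interval did not reach the VAT values. Left without Fosb, the Fos class still took 15.4% and 16.4% of the remaining member UMIs in VAT.

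**Figure D2:**
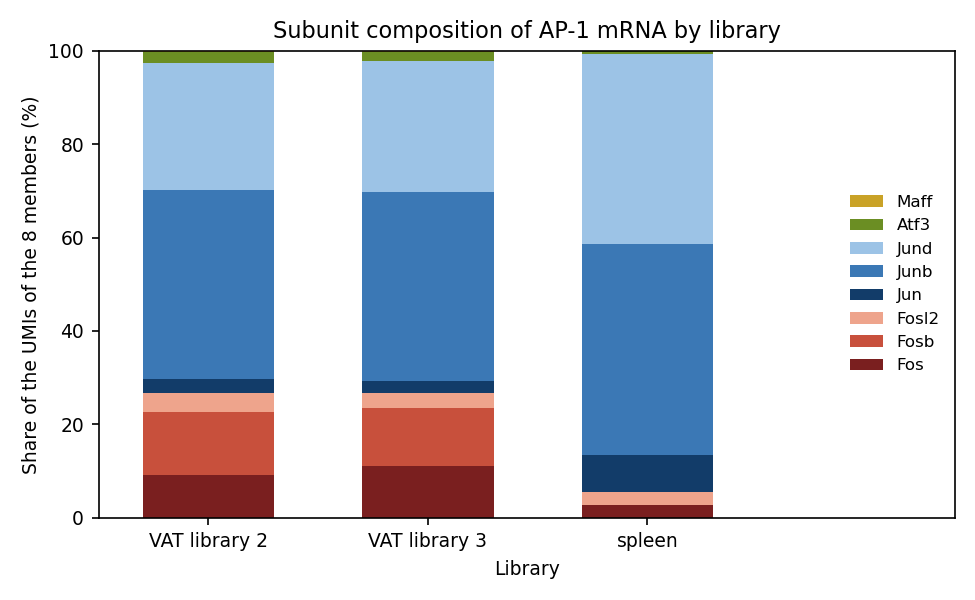
Share of the UMIs of the 8 members taken by each member, stacked, in VAT library 2, VAT library 3 and spleen. Red shades are the Fos class, at 26.8% in each VAT library and 5.45% in spleen, and blue shades the Jun class, at 70.7%, 70.9% and 93.8%.

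Cells were next compared at equal depth, by drawing 800 UMIs from each cell, which no cell fell short of. Junb was found in 94.8% and 94.6% of VAT cells and 18.9% of spleen cells, and Jund in 91.8% and 89.2% of VAT cells and 24.5% of spleen cells. Without thinning these shares were 97.9%, 98.4% and 28.5% for Junb and 97.6%, 97.5% and 37.9% for Jund. In spleen Junb was thus found in fewer cells than Jund although it had more UMIs, and its 256 UMIs were the more clumped, with 68.8% of them in the 10% of cells that held the most, against 50.9% for Jund.

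The Fos class was found in many VAT cells and in few spleen cells. Fosb was found in 60.9% and 55.1% of VAT cells (71.2% and 67.5% unthinned) and in none of the 375 spleen cells. Fos was found in 46.4% and 47.1% of VAT cells (59.7% and 60.2% unthinned) and 2.13% of spleen cells (3.2% unthinned). Fosl2 was found in 31.5% and 23.6% of VAT cells and 0.8% of spleen cells, and Jun in 24.2% and 22.9% of VAT cells and 5.87% of spleen cells. For every member the share was higher in both VAT libraries than in spleen, thinned or not. Atf3 was found in 17.6% and 11.1% of VAT cells and 0.267% of spleen cells, and Maff in 3.03% and 4.46% of VAT cells and in no spleen cell. All cells were of 1 sorted type, so the share that free RNA gives was not measured.

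Most VAT cells held several members at once. The median was 4 of 8 members in each VAT library and 0 in spleen, at 800 UMIs per cell. No member was found in 0.606% (0.0735 to 2.17) and 1.27% (0.348 to 3.23) of VAT cells and in 58.4% (53.2 to 63.4) of spleen cells. At least 5 members were found in 28.8% and 20.4% of VAT cells and in no spleen cell. UMIs of both classes were found together in 81.2% and 75.8% of VAT cells and 1.33% of spleen cells. Summed over the members, the median cell held 14 and 13 UMIs of 800 in VAT and 0 in spleen, and the cell with the most held 46 and 41 in VAT and 14 in spleen. Junb was the most counted member in 51.5% and 49.4% of VAT cells and a Fos-class member in 14.5% and 11.8%.

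**Figure D3:**
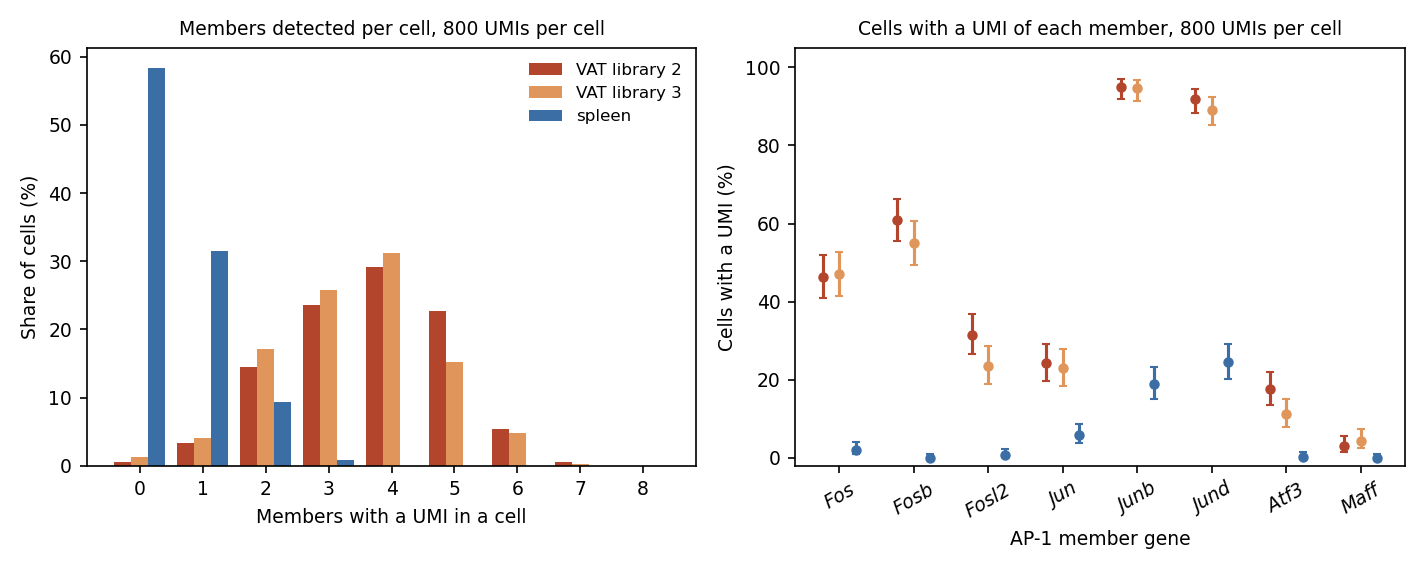
Left, share of cells (%) by the number of members with a UMI at 800 UMIs per cell; right, share of cells (%) with a UMI of each member, with exact 95% binomial intervals. VAT cells centre on 4 members, while 58.4% of spleen cells held none.

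The members differed in how unevenly their UMIs were spread over VAT cells. The variance of UMIs per cell divided by the mean, which is 1 for a Poisson count, was 4.26 and 4.25 for Fos in VAT libraries 2 and 3 and 3.53 and 2.75 for Fosb. It was 2.83 and 2.71 for Junb, 2.22 and 2.32 for Jund, 2.64 and 3.18 for Atf3, 2.28 and 1.94 for Fosl2, 2.06 and 2.07 for Jun, and 1.44 and 1.26 for Maff. By this measure, which also grows with the level, Fos was the most uneven member in both libraries. The 10% of cells that held the most Fos UMIs had 51.9% and 49.6% of them, and the richest cells had 50 and 34 Fos UMIs before thinning. For Junb the same share was 23.8% and 23.1%, for Fosl2 50.7% and 56.1%, for Jun 57.6% and 57.5% and for Atf3 70.4% and 85.0%, so by this share Jun and Atf3 were more concentrated than Fos. The share also rises when few cells hold a UMI. It was 100% for Maff, found in 19 and 22 cells, so it does not compare members of unlike level.

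To see whether unevenness repeated within a cell, each cell's UMIs were drawn into disjoint sets of 400, and a gene in the first set was compared with the same gene in the second by Spearman's rho. For Fos this was 0.49 and 0.55 in VAT libraries 2 and 3, for Fosb 0.53 and 0.51, for Junb 0.47 and 0.51, and for Maff, the scarcest, 0.21 and 0.14. These values say how well 400 UMIs rank the cells for that gene. Between different members the same measure was at most 0.20 and 0.23, for Fosb with Jund, and each member's own value was above its value with any other member.

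**Figure D4:**
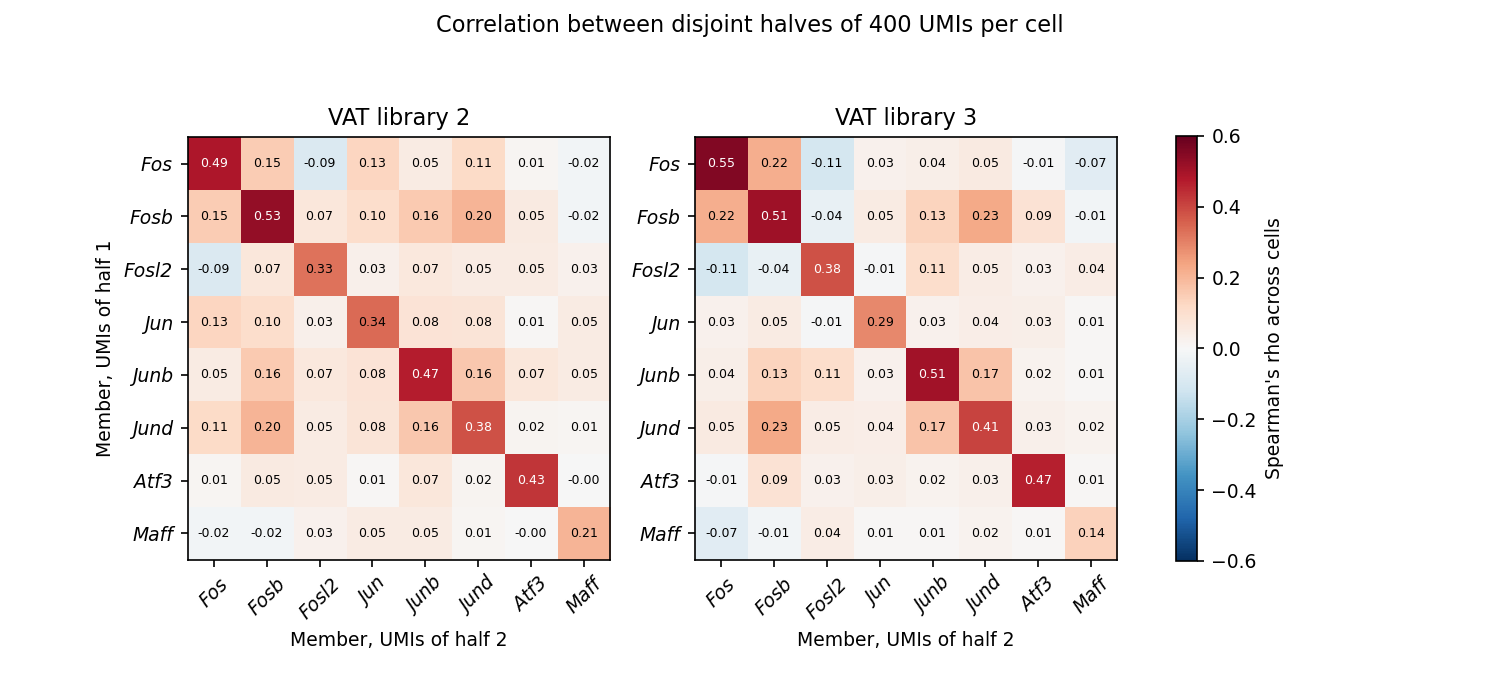
Spearman's rho across cells between disjoint sets of 400 UMIs per cell, for VAT library 2 (330 cells) and VAT library 3 (314 cells). The diagonal is a gene against itself, such as 0.49 and 0.55 for Fos; off the diagonal values are between members and are lowest for Fos with Fosl2.

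At 800 UMIs per cell the 28 pairs of members had a median rho of 0.08 over the 330 cells of VAT library 2 and 0.04 over the 314 cells of VAT library 3. Cells of a library share its preparation, and rho of a member with the cell's total UMIs lay between -0.10 and 0.09. As a scale, 67161 pairs among the 367 genes with 200 or more UMIs in each VAT library had medians of -0.0010 and -0.00050 and 95th percentiles of 0.07 and 0.08. Of the 28 member pairs, 17 and 7 lay above those percentiles, a larger share than among the 67161 pairs, and the rest lay below them. Most values were small, and none was above 0.28 in library 2 or 0.30 in library 3. The 367 genes include the other members but not Maff and Atf3, each with under 200 UMIs in a VAT library. The scale is not matched in level for any member pair, and pairs with Maff or Atf3 hold a gene below its minimum. Sparse counts keep rho low, and weak values here are descriptions.

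The pairs at the top were alike in the VAT libraries. Fosb with Jund was highest in both (0.28 and 0.30), followed in library 2 by Junb with Jund (0.24 and 0.24), Fos with Fosb (0.23 and 0.28) and Fosb with Junb (0.21 and 0.17). At 800 UMIs Fosb was found in 73.9% (66.1 to 80.6) of cells with a Fos UMI and 49.7% (42.1 to 57.3) of cells without in VAT library 2, and in 71.6% (63.6 to 78.7) and 40.4% (32.8 to 48.2) in VAT library 3. Fos with Jun, the pair for which AP-1 was first described, had 0.18 and 0.05, and Fos was found in 62.5% (51.0 to 73.1) of cells with a Jun UMI and 41.2% (35.04 to 47.6) without in library 2. In library 3 a Fos UMI was found in 36 of 72 cells with a Jun UMI (38.0% to 62.0%) and in 46.3% (39.9 to 52.8) of cells without, with overlapping intervals.

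Fos with Fosl2 was lowest in both VAT libraries, at -0.13 and -0.14. It was below 0 under each alternative run, between -0.16 and -0.08 in library 2 and between -0.20 and -0.11 in library 3. Of the other Fos-class pairs, Fosb with Fosl2 had 0.08 in library 2 and -0.07 in library 3, while Fos with Fosb was among the highest (0.23 and 0.28). In spleen Fos with Fosl2 had -0.01 over 375 cells, from 16 Fos and 15 Fosl2 UMIs, which is too few to rank cells.

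Genes outside the family were ranked by their rho with the summed members, among 361 genes with 200 or more UMIs in each VAT library, taking the smaller value of the libraries. At the top were Tnfaip3 (0.29 and 0.29) and Nfkbia (0.24 and 0.30), inhibitors of NF-kB signalling, Zfp36 (0.29 and 0.39), whose protein destabilises short-lived mRNAs, and Lmna (0.29 and 0.24), a nuclear lamin. Dusp1 (0.31 and 0.21), a phosphatase that switches off MAP kinases, and Gadd45b (0.20 and 0.22), a stress gene, came next. All 6 were also higher in VAT than in spleen, such as Lmna with 758 and 815 UMIs in VAT and 1 in spleen. The 361 genes had to meet a minimum in VAT and none in spleen, so this count is partly set by the filter. The share of the 361 that were higher was not computed, and the count is no result about the 6 genes. At the bottom stood 6 ribosomal protein genes, Rps18, Rpl13, Rps2, Rps10, Rps7 and Rpl17, with Rps18 at -0.18 and -0.19.

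The nearest genes differed between Fos and Fosl2. For Fos they were Dusp1 (0.24 and 0.35) and Klf6 (0.20 and 0.21), an immediate early zinc finger factor. For Fosl2 they were Nr4a1 (0.24 and 0.18), an orphan nuclear receptor induced by T cell receptor signals, and Areg (0.18 and 0.14), an epidermal growth factor family ligand made by tissue Tregs. Chosen after their values were seen, Nr4a1 and Areg had -0.18 and -0.18, and -0.20 and -0.17, with Fos. Dusp1 had 0.01 and -0.02 with Fosl2.

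**Figure D5:**
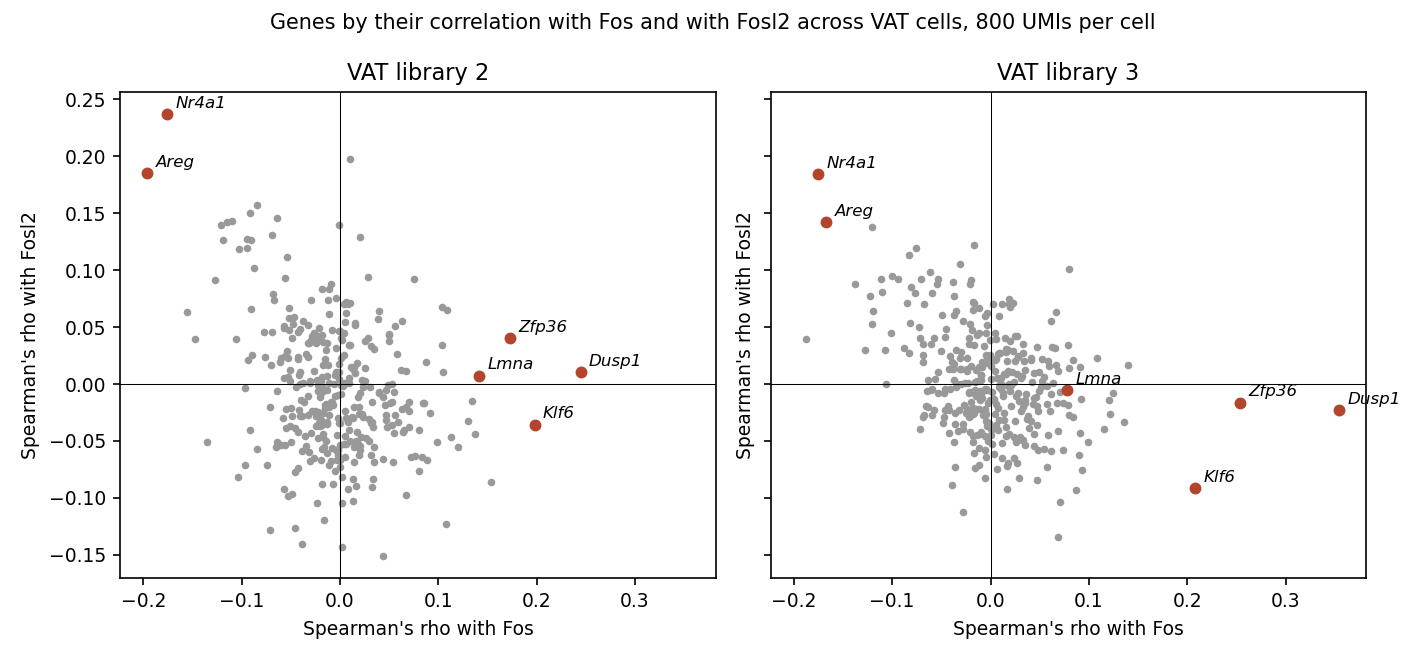
Each of 361 genes by its Spearman's rho with Fos (horizontal) and with Fosl2 (vertical) across VAT cells at 800 UMIs, for VAT library 2 and VAT library 3. Nr4a1 and Areg lie at the upper left and Dusp1, Zfp36 and Klf6 at the right in both panels.

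Several of these genes came up again for the other members. Fosb was nearest to Lmna (0.35 and 0.29) and Dusp1 (0.25 and 0.23), Junb to Zfp36 (0.28 and 0.32) and Nfkbia (0.21 and 0.28), and Jund to Nfkbia (0.22 and 0.27) and Tnfaip3 (0.17 and 0.25). Jun was nearest to Zfp36 (0.14 and 0.13) and Tnfaip3 (0.08 and 0.08) and Atf3 to Nfkbia (0.14 and 0.15) and Lmna (0.10 and 0.14). Maff, with 28 and 29 UMIs, was nearest to Eif1 (0.10 and 0.07), a translation initiation factor gene, and Bcl2a1a (0.07 and 0.07), a survival gene, neither of which was nearest to any other member.

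Other genes of the pathway were read from lists, with the count past the 2-fold rule among genes of 50 or more UMIs. Of the kinases and factors that activate AP-1, 3 of 14 were higher in VAT and 0 lower, with median log2 ratios of 0.60 and 0.34. Beside the 10.3% of all genes that were higher, 3 of 14 is no result about the list. Rps6ka1, a ribosomal S6 kinase, had ratios of 2.07 and 2.09, while Map2k2 (MEK2) had 0.880 and 0.990, within the 2-fold bounds. The others past the rule were Map2k3 (3.58 and 2.83) and Map3k8, with 47 and 18 UMIs in VAT and 1 in spleen. Both had under 50 UMIs in spleen and met the minimum only with VAT. Of feedback genes, 7 of 8 were higher, with medians of 2.07 and 1.81, and 2 of the 7 had under 50 UMIs in spleen and met the minimum only with VAT. Zfp36 was 26.8-fold and 24.6-fold higher and Dusp1 17.9-fold and 17.3-fold, and Spry1, the exception, had 6 and 37 UMIs in VAT and 9 in spleen.

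Of 22 other immediate early genes listed, 15 had 50 or more UMIs, with median log2 ratios of 3.50 and 3.56. Among the 15, 13 were higher, beside 10.3% of all genes. Of these 13, 10 had under 50 UMIs in spleen and met the minimum only with VAT, as did 6 of the 10 higher AP-1 targets below, so these counts are partly set by the filter. Nr4a1 was 33.3-fold and 25.1-fold higher, Gadd45b 31.8-fold and 34.3-fold and Klf6 6.92-fold and 7.25-fold, while Btg1, an antiproliferative gene, had ratios of 1.04 and 0.983 and Ier5 of 1.94 and 2.14. Of 20 described AP-1 targets listed, 11 had 50 or more UMIs, with medians of 3.70 and 3.68. Among the 11, 10 were higher, beside the same 10.3%. They included Vim, an intermediate filament gene (13.0-fold and 12.8-fold), Areg (51.3-fold and 61.6-fold) and Cd69, an early activation receptor (26.6-fold and 23.9-fold). Il2ra, at 2.44 and 2.23, encodes CD25, on which the cells were sorted. Icos, a costimulatory receptor, was the exception at 0.776 and 0.860. These target genes are described from other cells and were not shown here to bind AP-1.

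Of other bZIP genes 2 of 12 were higher and 0 lower, near the 10.3% of all genes. They were Crem (14.2-fold and 14.4-fold), a cAMP-responsive factor, and Atf6 (4.24-fold and 4.18-fold), a sensor of endoplasmic reticulum stress. Both had under 50 UMIs in spleen and met the minimum only with VAT. Batf, the bZIP partner of Jun proteins in T cells, had 67 and 42 UMIs in VAT and 58 in spleen, with ratios of 1.19 (0.826 to 1.72) and 0.757 (0.496 to 1.15). Bach2, a bZIP repressor of resting T cells, had 3 and 6 UMIs in VAT and 26 in spleen. Batf and Bach2 were named after their values were seen. Of heat shock and chaperone genes, 0 of 11 were higher and 0 lower, with medians of -0.24 and -0.36, and Hspa8, a constitutive chaperone, had 912 and 889 UMIs in VAT and 934 in spleen.

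Cell by cell, the summed feedback genes had a rho of 0.37 and 0.35 with the summed members in VAT and 0.25 in spleen, and the other immediate early genes 0.37 and 0.35 in VAT and 0.20 in spleen. The kinases had 0.04 and -0.00 in VAT and 0.03 in spleen, the heat shock genes 0.03 and -0.03 in VAT and 0.13 in spleen, and the other bZIP genes -0.00 and -0.02 in VAT and 0.14 in spleen. For these lists the VAT values lay near 0. The described targets had 0.17 and 0.08 in VAT and 0.07 in spleen, and the Treg identity genes -0.03 and -0.09 in VAT and 0.04 in spleen. Of the genes of tissue Tregs, 7 of 8 were higher in VAT, beside 10.3% of all genes. Among these 7, 5 had under 50 UMIs in spleen and met the minimum only with VAT. The summed list had a rho of 0.02 and 0.09 in VAT and 0.11 in spleen. For this list a level above spleen did not by itself go with a high rho across VAT cells.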

How the data were processed

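Single-cell UMI counts were deposited by the authors as 1 table of whole numbers that were not normalized, in which rows are gene symbols and columns are cells. Per the submitters' processing notes, TopHat2, SAMtools and the build mm10 were used, with no versions. Not given in the sources used here are the annotation, the strand setting, the cell filter and any doublet removal, and no doublet caller was run. Each column matched 1 cell by title, and its tissue is the source name in the labels. The members and lists were chosen with earlier results of these data known.

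UMIs were summed per library and divided by its total (CPM). A gene with 50 or more UMIs was called when its log2 ratio, 0.5 added to each count, passed 2-fold in both VAT libraries. Printed ratios omit that addition and carry exact conditional binomial intervals, levels carry exact Poisson intervals and shares Clopper-Pearson intervals, all at 95%. A count of 0 allows 5.39 and 5.47 CPM in VAT libraries 2 and 3 and 5.23 CPM in spleen (3 counts). UMIs came in clumps, so these intervals are too narrow. For cell comparisons each cell was thinned without replacement to 800 UMIs, and rho is the mean over 20 draws (seed 1). Shares of cells, members per cell and summed UMIs per cell at 800 UMIs come from a single draw. Their intervals leave out the spread between draws. The code was tested on simulated data. Alternatives changed the total, the cells, the depth, the minimum and the libraries used.

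Named were all members, the 6 highest and 6 lowest genes by rho with the summed members, the 2 genes nearest each member, and up to 4 genes per list with the most UMIs; some genes that the rule picks are not reported here, and others are said to be chosen after their values were seen or are exceptions in a list. Coordinates are 1-based, from GENCODE M21, which held 22822 of 23725 symbols. Python 3.11.15, numpy 2.4.6, pandas 2.3.3, scipy 1.17.1 and matplotlib 3.10.9 were used.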

Additional observations from a re-analysis of the deposited data

How the results depend on the processing

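All 8 members were higher in both VAT libraries under each alternative run. None of their 124 recomputed log2 ratios changed sign, although 16 moved by more than their interval. Part of the 124 could not change sign. Leaving out 1 VAT library repeats the ratio of the other and cannot lower the count of 8. Leaving out the spleen cell richest in a member can only raise its ratio. In cells free of other cells' markers the log2 ratios were 6.45 and 6.22 for Fosl2 (4.77 and 4.29 in all cells), 7.94 and 7.86 for Atf3 (5.70 and 5.39) and 5.11 for Fos in VAT library 2 (5.84). Leaving out the richest spleen cell of each member, an alternative added after seeing the data, gave 6.02 and 5.54 for Fosl2 and 8.87 and 8.56 for Atf3. In Foxp3 cells, which are fewer, Maff had 3.75 and 3.61 (5.88 and 5.95) and Fosb 9.91 and 9.68 (11.43 and 11.21); both are at 0 in spleen, so these ratios depend on the 0.5 added. Atf3 had 7.65 and 7.21 there. All 4 spleen UMIs of Atf3 lay in 1 cell, and without that cell spleen was at 0. The Atf3 ratios in Foxp3 cells, in marker-free cells and without the richest spleen cell therefore depend on the 0.5 added as well.

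Over all genes, 478 were higher and 204 lower. With cells holding a Foxp3 UMI alone these were 252 and 79 of 1938 genes, with thinned cells 290 and 89 of 2611, with a minimum of 20 UMIs 783 and 479 of 7429, and with no minimum 1469 and 1918 of 13281. Without ribosomal totals 342 were lower, and in marker-free cells 108. Leaving out either VAT library gave 593 to 627 higher and 343 to 409 lower. The Fos-class share was 24.8% in VAT library 2 and 24.3% in VAT library 3 as a mean over cells, 25.6% in Foxp3 cells and 24.8% in marker-free cells of library 2, and 15.4% and 16.4% without Fosb. Without thinning the median rho of member pairs was 0.118 and 0.0872. The cause of these moves was not tested. No paired analysis was possible because nothing in the labels ties a VAT library to the spleen library. Depth limits spleen values of Fosb, Fos, Fosl2, Atf3 and Maff, each from 16 UMIs or fewer.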
